A study of Mus musculus with 8 samples.

Results

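The genes described here encode cytosolic and mitochondrial heat shock proteins, their DNAJ partners and the subunits of the CCT ring, as measured in serum-starved and unstarved IMCD3 cells, an established mouse cell line of inner medullary collecting duct origin. Members were taken by the gene name printed on the array: all names that start with Hspa, Hspb, Hspd, Hspe, Hsph, Hsp90a, Dnaja, Dnajb or Dnajc, the names Cct2 to Cct8, and Tcp1 and Hsf1, with Hspa5 left out. This gave 70 genes with 135 probes among the 41174 non-control probes of the array, and 62 of them, through 120 probes, were measured well enough above background to be tested. No member name starting with Hsph was on the array. Hsph1 and 10 other genes of these families are listed under other names, so they are not members.

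All cells were cultured in DMEM with F12, Glutamax, penicillin, streptomycin and 10% fetal calf serum, and the starved cells then spent 48 h in medium without it, a treatment meant to make them form cilia. The unstarved cells had been thinned out on the day before and were not yet confluent, so the effects of serum and of cell density cannot be told apart. By its title, the study looked for genes that act downstream of FOXJ1, a transcription factor of ciliated cells. Each of the 4 Agilent 2-colour arrays held 1 starved and 1 unstarved sample, which makes 8 samples, 4 per group, in 2 replicates. No transgene or drug is named for either group, both groups come from 1 cell line, and the replicates are separate culture dishes of it.

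Molecular chaperones bind unfolded protein chains and help them fold. HSP70 proteins do so in cycles of ATP hydrolysis that DNAJ proteins, also called J proteins or HSP40s, start. HSP110 proteins act as nucleotide exchange factors for HSP70, and HSP90 acts later on selected client proteins. Small heat shock proteins hold unfolding proteins without ATP, HSP60 with its HSP10 lid folds proteins in the mitochondrial matrix, and the CCT ring folds actin, tubulin and other cytosolic proteins. Heat shock factor 1, encoded by Hsf1, drives many of these genes under stress by binding heat shock elements, which are inverted repeats of a short GAA unit. In kidney medulla, chaperones are known for their response to high salt and urea.

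The promoter sequences of the genes that the results turn on are shown here because several of them hold such elements. All sequences run 5′ to 3′ and come from RefSeq on build GRCm38.p6, in which 57 of the 70 members had a promoter window. The 250 bases before each start were searched on both strands for a 3-unit heat shock element (GAANNTTCNNGAA or TTCNNGAANNTTC), which was present in 3 members, Hspd1, Hspe1 and Dnajb6 (5.26%), and in 0.514% of all 27025 genes with a window. Hspd1 and Hspe1 lie head to head and share the stretch in which it was found. A 2-unit element (GAANNTTC or TTCNNGAA), which every 3-unit element contains, was present in 13 members (22.8%) and in 14.5% of all genes. An endoplasmic reticulum stress element (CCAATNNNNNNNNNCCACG) was present in 1 member, Dnajc3 (1.75%), and in 0.13% of all genes. The hexamer CACGTG, an E-box, was present in 5 members (8.77%) and in 6.86% of all genes. Such matches describe letters in these windows, and binding was not measured. Capitals mark the element named for each gene. The first sequence is the whole 215 bases between the starts of Hspd1 and Hspe1 (chr1:55087933-55088147, read in the direction of Hspe1), with overlapping 3-unit matches that begin 89 bases before the Hspe1 start. The next are the 250 bases before the start of Hspb1 (chr5:135887669-135887918, plus strand, with 2-unit elements), of Hspa1a (chr17:34972157-34972406, minus strand, with a 2-unit element) and of Dnajc3 (chr14:118937682-118937931, plus strand, with the stress element).
Hspd1 and Hspe1: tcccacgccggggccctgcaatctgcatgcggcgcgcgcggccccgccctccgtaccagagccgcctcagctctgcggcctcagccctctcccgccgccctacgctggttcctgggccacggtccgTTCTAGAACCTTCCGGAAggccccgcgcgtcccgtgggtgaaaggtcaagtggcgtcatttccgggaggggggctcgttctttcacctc
Hspb1: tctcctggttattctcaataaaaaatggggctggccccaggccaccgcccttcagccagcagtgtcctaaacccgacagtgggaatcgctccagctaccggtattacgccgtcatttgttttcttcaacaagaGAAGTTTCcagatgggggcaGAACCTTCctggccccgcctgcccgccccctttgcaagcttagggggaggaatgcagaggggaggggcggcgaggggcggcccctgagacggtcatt
Hspa1a: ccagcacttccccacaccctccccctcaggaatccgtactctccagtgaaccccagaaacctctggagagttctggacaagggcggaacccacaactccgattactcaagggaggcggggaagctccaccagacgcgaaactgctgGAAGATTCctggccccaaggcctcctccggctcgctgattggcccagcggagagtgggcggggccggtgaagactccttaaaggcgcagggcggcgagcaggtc
Dnajc3: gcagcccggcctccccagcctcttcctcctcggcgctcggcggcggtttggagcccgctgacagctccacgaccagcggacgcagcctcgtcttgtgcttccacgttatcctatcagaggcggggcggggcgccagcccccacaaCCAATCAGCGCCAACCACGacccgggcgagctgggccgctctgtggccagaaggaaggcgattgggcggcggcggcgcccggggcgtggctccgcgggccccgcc

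The array measures each gene with probes of 60 bases. The first 30 bases of the probes behind the largest ratios, and of all 3 Dnajc5 probes, which went different ways, are given as the array design lists them, with positions on the design's build, mm8. The probe used for Hspb1 maps to chr5:136173684-136173871, that for Hspe1 to chr1:55035623-55035682, that for Hspd1 to chr1:55022530-55022589, that for Hspa1a to chr17:34577877-34577936 and that for Dnajc5b to chr3:19802699-19802758. The Dnajc5 probes map to chr2:181478154-181478213 (the first shown), chr2:181481721-181481780 (the next) and chr2:181481347-181481406 (the last, the brightest).
Hspb1 probe: gaagaaaggcaggacgaacatggctacatc
Hspe1 probe: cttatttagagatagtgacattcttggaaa
Hspd1 probe: tgggtgcaagagccatataccagtgtcctg
Hspa1a probe: agggaaactaaactgtctttcagttacttt
Dnajc5b probe: tggactttccagttgttctccagcctacaa
Dnajc5 probe at 181478154: tgggaaatgcaagcccaaggcacctgaggg
Dnajc5 probe at 181481721: tacttgctggatttgttcctgaatcataaa
Dnajc5 probe at 181481347: tgctggagtgtaggtttctgtttgtgccca

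Each value is the log2 of starved over unstarved signal within an array, so a value below 0 means less RNA signal in starved cells. Arrays 1 and 3 belong to replicate 1, with starved RNA in the dye Cy5, and arrays 2 and 4 to replicate 2, with starved RNA in Cy3. Each ± is the moderated standard error (SE) of limma over the n = 2 replicates, and each adjusted p is limma's, two-sided, corrected by the Benjamini-Hochberg method over all 16080 genes tested. A gene is said to have risen or fallen where that p was below 0.05. Across genes, the ratios of the arrays in 1 replicate correlated at 0.991, those from different replicates at 0.824 to 0.83. The replicates differ in dye orientation too, so a difference between replicates and one between dyes cannot be told apart. In a cell line sample, fewer cells of a type and less RNA per cell cannot be told apart either.

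More of these chaperone genes fell than rose in starved cells. Of the 62 tested, 13 fell and 7 rose, while 42 passed the test in neither direction. The 7 include Dnajc5b, which entered the test only through the starved group, where it is high; 6 rose among those measured in both groups. Over all genes tested, 13.4% fell and 18.1% rose, against 21% and 11.3% of the chaperones. The median log2 ratio of the chaperones was -0.121 (-0.118 in replicate 1 and -0.104 in replicate 2), beside 0.005 for all genes. All 4 arrays were below 0 for 26 chaperones (41.9%) and above 0 for 15 (24.2%), where the shares over all genes were 33.2% and 36.1%. All 13 that fell were below 0 on every array, and all 7 that rose were above 0 on every array. The calls come from the same arrays, so these signs are no independent support. Apart from Dnajc5b, for which only a bound can be given, no called chaperone differed by as much as 2-fold in its mean ratio. Among those that fell, the sizes ran from 1.27-fold lower in Cct6b to 1.94-fold lower in Hspb1.

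**Figure D1:**
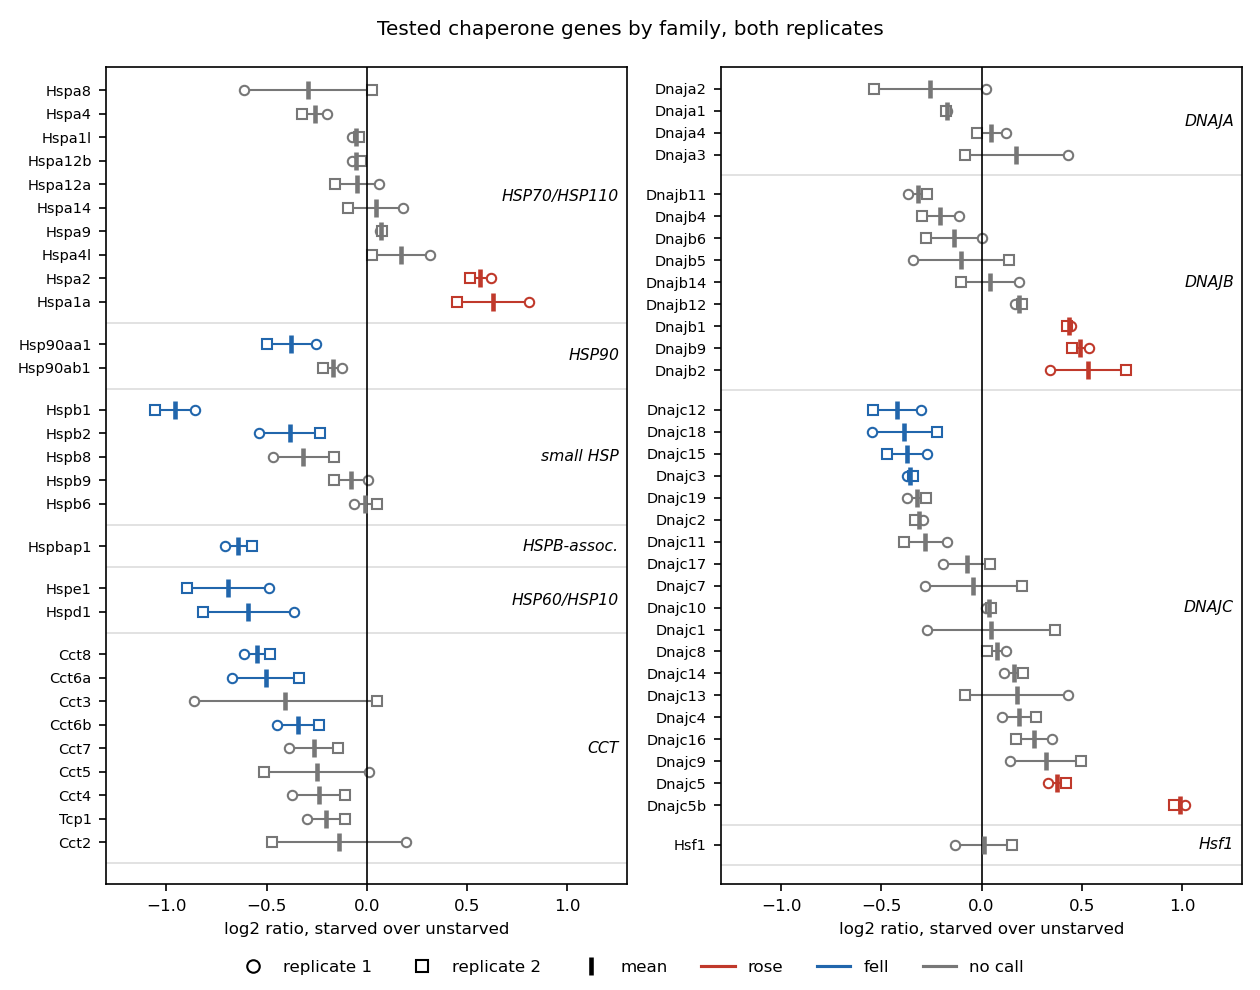
Log2 ratio of starved over unstarved cells (horizontal axis) for the 62 tested chaperone genes, grouped by family. Circles are replicate 1, squares replicate 2 and bars their mean; red genes rose, blue genes fell and grey genes passed the test in neither direction. All 9 CCT genes and all 5 tested small heat shock genes have means below 0, while the 10 HSP70 and HSP110 genes lie on both sides.

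These calls rest on the labels' assignment of arrays to replicates and on the loess step that removes dye bias. With the arrays paired in the other ways, the same test called 22 or 20 members higher and 37 lower, while 88.9% or 87.7% of all genes were called. By the labels, each such pair joins arrays of both replicates, so the error there is that between repeat arrays. With median centring in place of loess limma called 0 members (6 were below 0.05 before adjustment) and 1.55% of all genes. All 20 called members kept their sign under each of these settings. Under median centring, however, the ratio of Dnajb1 shrank to 0.05 and that of Dnajc5 to 0.11, while those of Hsp90aa1 (-0.77), Cct6b (-0.65), Hspd1 (-1.005), Dnajc15 (-0.62), Cct8 (-0.88) and Hspe1 (-1.05) moved over 1.5 times farther from 0.

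The largest fall was in Hspb1, which encodes HSP27, a small heat shock protein that binds unfolding proteins and actin filaments. Its log2 ratios were -0.89, -1.08, -0.83 and -1.04 on arrays 1 to 4. All were far below 0, and their mean was -0.96 ± 0.13 (adjusted p = 2.11e-05), 1.94-fold lower. A second probe listed as Hspb1, placed on another chromosome (13), was not well above background and was not tested. Hspb2, a relative of Hspb1 known from heart and skeletal muscle, fell by 0.38 on the log2 scale (adjusted p = 0.0311), with arrays at -0.54, -0.25, -0.53 and -0.22. Among the other small heat shock genes tested, Hspb8, a partner of BAG3 in selective autophagy, had a ratio of -0.32 ± 0.13 (adjusted p = 0.0722). Hspb9 and Hspb6 were near 0, at -0.08 and -0.01. Both were dim, with mean log2 levels in unstarved cells of 8.23 and 8.96, where Hspb1 was at 16.98. Of the 5 tested, 2 fell by limma (40%, beside 13.4% of all genes) and none of the 5 rose (beside 18.1%). Before adjustment 3 of the 5 were below 0.05, all of them with ratios below 0. Hspb3 and Hspb7 were not well above background on any array. Hspbap1, which encodes a protein that binds HSPB1 and enters the list through its name, fell by 0.64 (adjusted p = 8.74e-04), with every array between -0.72 and -0.56.

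The mitochondrial folding chamber was lower in both of its parts. Hspe1, the HSP10 lid, had ratios of -0.50, -0.91, -0.48 and -0.88 on arrays 1 to 4, a mean of -0.69 ± 0.13 and a 1.62-fold lower signal (adjusted p = 8.16e-04). Hspd1, the HSP60 barrel, stood at -0.38, -0.83, -0.34 and -0.81, with a mean of -0.59 ± 0.14 (adjusted p = 3.15e-03). The pair showed one pattern over the arrays, with ratios farther from 0 in replicate 2 than in replicate 1. A second Hspd1 probe gave -0.65, and it was lower in replicate 1 (-0.78 and -0.73 on arrays 1 and 3). Both genes share the promoter stretch printed above. Hspa9, the HSP70 of the mitochondrial matrix, was close to 0: its arrays lay between 0.05 and 0.09, and the mean was 0.07 ± 0.12 (adjusted p = 0.703). Of the 4 J proteins assigned to mitochondria, Dnajc15, of the import motor, fell by 0.37 (adjusted p = 0.0327; 0.0502 with Agilent's processed signals). Dnajc19, also of the import motor, was at -0.32 (adjusted p = 0.0558), Dnajc11 at -0.28 and Dnaja3 at 0.17, none of which passed the test. In all, 3 of the 7 mitochondrial members fell (42.9%, beside 13.4% of all genes). All 4 arrays were below 0 in 5 of them (71.4%, beside 33.2% of all genes).

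The CCT ring, also called TRiC, is built from 8 kinds of subunit, of which Cct6 exists as the genes Cct6a and Cct6b. All 9 genes had mean ratios below 0 (beside 49.2% of all genes), with a median of -0.264. Of the 9, 3 fell (33.3%, beside 13.4% of all genes). Cct8 was at -0.65, -0.51, -0.58 and -0.45 on arrays 1 to 4, a mean of -0.55 ± 0.12 (adjusted p = 2.82e-03). Cct6a stood at -0.66, -0.35, -0.69 and -0.32, a mean of -0.50 ± 0.13 (adjusted p = 6.92e-03). Cct6b, the testis-enriched form of the same subunit, had a mean log2 level of 15.93 in unstarved cells, above the 14.59 of Cct6a. Whether their probes tell these genes apart was not tested. Cct6b was closest to the threshold, at -0.34 ± 0.13 (adjusted p = 0.0477). The call was lost without array 2 (adjusted p = 0.0530), without array 3 (just past the threshold) and with the background filter in both groups (adjusted p = 0.0504). It was also lost with Agilent's processed signals (adjusted p = 0.0790) and the deposited values (adjusted p = 0.0764). The other 6 passed in neither direction. Cct3 had a mean farther from 0 than Cct6b, -0.41 ± 0.17, but its arrays read -0.87, 0.07, -0.85 and 0.03, low in replicate 1 and near 0 in replicate 2 (adjusted p = 0.0762). Cct2 ran the other way, at 0.21, -0.47, 0.18 and -0.48 (mean -0.14), and Cct5 was at 0.01 in replicate 1 and -0.51 in replicate 2. Cct7 (-0.26), Cct4 (-0.24) and Tcp1, the first subunit of the ring (-0.20), were below 0 on every array. Cct2, Cct3, Cct4 and Tcp1 each had a second, dimmer tested probe, which was below 0 on every array. It was the lower one in all 4 genes, at -0.49, -0.55, -0.63 and -0.33. With the mean of all probes in place of the brightest, Cct3 and Cct4 fell too (adjusted p = 0.0171 and 0.0135).

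Among the 10 HSP70 and HSP110 members, the 2 that passed the test were higher in starved cells. This share, 20%, was near the 18.1% of all genes that rose. Hspa1a, the stress-inducible HSP70, had ratios of 0.79, 0.44, 0.83 and 0.46 on arrays 1 to 4. Its mean was 0.63 ± 0.13, a 1.55-fold higher signal (adjusted p = 1.53e-03), and its 4 probes were all above 0, from 0.30 to 0.63. No probe was named Hspa1b, the near-identical neighbour of Hspa1a, so how the RNA divides between the pair is uncertain. Hspa2, an HSP70 best known from sperm development, rose by 0.57 ± 0.12 (adjusted p = 2.15e-03), with every array between 0.52 and 0.63. Hspa8, the constitutive HSP70, read -0.60, 0.04, -0.63 and 0.01, again low in replicate 1 and near 0 in replicate 2, with a mean of -0.29 ± 0.15 (adjusted p = 0.144). A second Hspa8 probe, nearly as bright, did not split: it read -0.40, -0.38, -0.36 and -0.33 on arrays 1 to 4 (mean -0.37). Hspa4, an HSP110-type exchange factor, was below 0 on all 4 arrays with a mean of -0.26 ± 0.12 (adjusted p = 0.127). Its relative Hspa4l stood at 0.17. Of the 10 genes in this family 2 rose and none of the 10 fell by limma (2 of the 10 were below 0.05 before adjustment, both of them risen). Hspa1l, Hspa12a, Hspa12b and Hspa14 had means between -0.05 and 0.04. Of these, Hspa1l, Hspa12a and Hspa12b were dim, with mean log2 levels in unstarved cells of 7.66, 8.34 and 7.40. Hsph1, listed as Hsp110 and so outside the members, was at -0.39, -0.69, -0.34 and -0.66 and fell by 0.52 (adjusted p = 5.49e-03).

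Both cytosolic HSP90 genes were below 0 on every array by their brightest probes. Hsp90aa1, the stress-inducible form, read -0.26, -0.48, -0.24 and -0.52, a mean of -0.38 ± 0.13 (adjusted p = 0.0325). The constitutive form Hsp90ab1 had a mean of -0.17 ± 0.12 and did not pass (adjusted p = 0.325). Its second, dimmer probe split between replicates, at -0.59, 0.03, -0.56 and 0.03 on arrays 1 to 4. A difference between the forms was not tested. The Hsp90aa1 call was lost with Agilent's processed signals (adjusted p = 0.0819) and the deposited values (adjusted p = 0.0793).

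**Figure D2:**
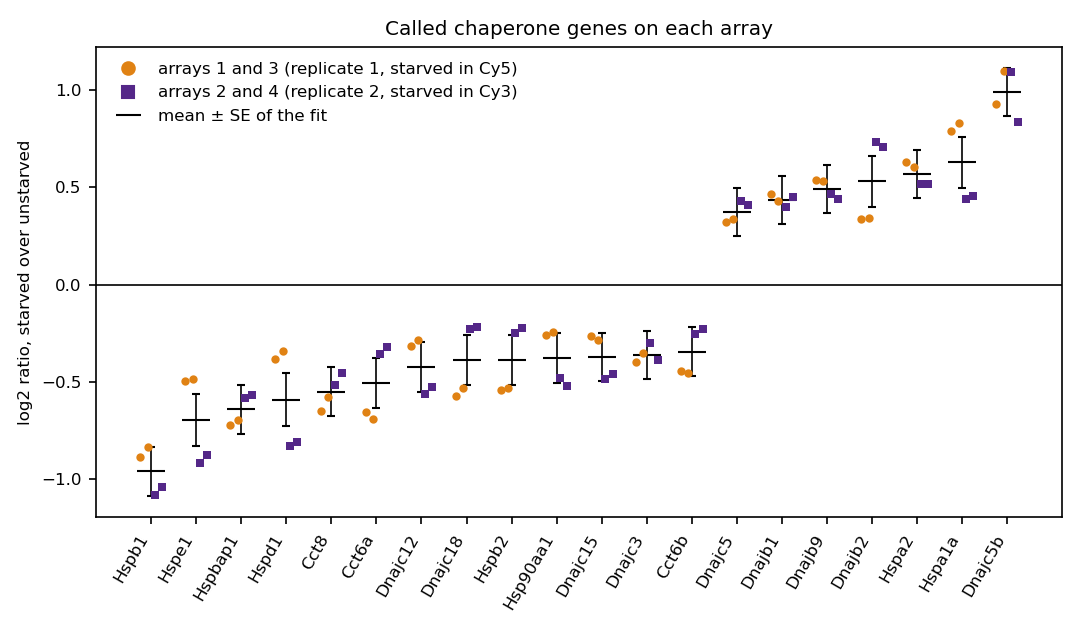
Log2 ratio of starved over unstarved cells on each of the 4 arrays (vertical axis) for the 20 chaperone genes that passed the test, from the lowest to the highest mean. Circles are the arrays of replicate 1, squares those of replicate 2, and bars the mean ± SE of the fit with n = 2. No gene has arrays on both sides of 0, which is no independent support because the test used these arrays. In Hspe1 and Hspd1 replicate 2 lies below replicate 1.

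The J proteins are grouped by class. Of the 4 DNAJA genes, the closest relatives of the first bacterial DnaJ, none passed in either direction by limma, and 0 of the 4 were below 0.05 before adjustment. Over all genes, 13.4% fell and 18.1% rose. Dnaja1, a partner of HSP70 in the cytosol, was at -0.16, -0.19, -0.18 and -0.16, a close set of values with a mean of -0.17 ± 0.12 (adjusted p = 0.309). This was its brightest probe. Its other tested probes were farther from 0 in replicate 2 (-0.35 and -0.65) than in replicate 1 (-0.09 and -0.06). Dnaja2, of the same kind, split between replicates at 0.02 and -0.54.

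Of 9 tested DNAJB genes, 3 rose by limma (33.3%, beside 18.1% of all genes) and none of the 9 fell (beside 13.4%). Before adjustment 4 of the 9 were below 0.05, the 3 that rose and Dnajb11. Dnajb1, the major heat-inducible HSP40, was at 0.46, 0.40, 0.43 and 0.45, a mean of 0.44 ± 0.12 or 1.35-fold higher (adjusted p = 0.0125). Its second probe gave 0.37. Dnajb2, a J protein that brings clients to the proteasome and is abundant in neurons, was at 0.34, 0.73, 0.34 and 0.71 (mean 0.53 ± 0.13, adjusted p = 5.50e-03). Dnajb9, an endoplasmic reticulum partner of BiP, rose by 0.49 ± 0.12 (adjusted p = 5.71e-03), and its other probes were at 0.22 and 0.27. Dnajb11, of the same compartment, had a ratio of -0.32 ± 0.12 and just missed the threshold (adjusted p = 0.0605). The remaining 5, Dnajb4, Dnajb5, Dnajb6, Dnajb12 and Dnajb14, had means between -0.21 and 0.19. The 3-unit element in the Dnajb6 promoter thus stands beside a ratio of -0.14 ± 0.13 (adjusted p = 0.453). Dnajb3, Dnajb7, Dnajb8 and Dnajb13 were not tested, being well above background on at most 1 array of a group.

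The DNAJC genes are the most varied class, joined only by their J domain. Of 19 tested, 4 fell (21.1%, beside 13.4% of all genes) and 2 rose (10.5%, beside 18.1%). The highest ratio of all members was that of Dnajc5b, a relative of cysteine string protein: it was not well above background on any array in unstarved cells with either probe, and was so on all 4 arrays in starved cells. Its signal was at least 1.69-fold higher, a bound set by the lowest signals read above background in unstarved cells. The arrays read 0.93, 1.09, 1.10 and 0.84 against a signal not well above background, and the ratio depended on how background was handled, at 1.63 with Agilent's processed signals and 1.73 with the deposited values. The fit's adjusted p of 1.27e-05 is no independent support, since the filter passed this gene only through the starved group. Dnajc5, cysteine string protein itself, which guards synaptic vesicle fusion, was called risen at 0.38 ± 0.12 (adjusted p = 0.0285). Its probes disagreed, however: they read 0.38, 0.23 and -0.21, and their mean gave 0.13 with an adjusted p of 0.394. The call was also lost with Agilent's processed signals (adjusted p = 0.0773) and the deposited values (adjusted p = 0.0748). The genes that fell were Dnajc12, a partner of aromatic amino acid hydroxylases (-0.42 ± 0.13, adjusted p = 0.0178), Dnajc18 (-0.39 ± 0.13, adjusted p = 0.0320), Dnajc15, described above, and Dnajc3. Dnajc3 encodes p58IPK, a co-chaperone of BiP that also inhibits the kinase PERK. It read -0.40, -0.30, -0.35 and -0.39 on arrays 1 to 4, with a mean of -0.36 ± 0.12 (adjusted p = 0.0352), and all 4 of its probes were below 0, from -0.69 to -0.36. Its call was lost without array 4 (adjusted p = 0.0507), with Agilent's processed signals (adjusted p = 0.0529) and with the deposited values (adjusted p = 0.0509). Dnajb9 and Dnajc3 thus went opposite ways among the 5 J proteins assigned here to the endoplasmic reticulum, which need not be all of that compartment. Dnajb11, Dnajc1 and Dnajc10 passed in neither direction. The other DNAJC genes ran from -0.32 in Dnajc19 to 0.32 in Dnajc9, a histone co-chaperone (adjusted p = 0.0735). Dnajc6 and Dnajc5g were not tested.

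Hsf1, the main heat shock factor, passed the test in neither direction. Its arrays read -0.12, 0.14, -0.14 and 0.17, a mean of 0.01 ± 0.13 (adjusted p = 0.958). Its 3 probes lay between -0.07 and 0.01. This concerns its RNA only, since the activity of the factor is set largely on the protein and was not measured.

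**Figure D3:**
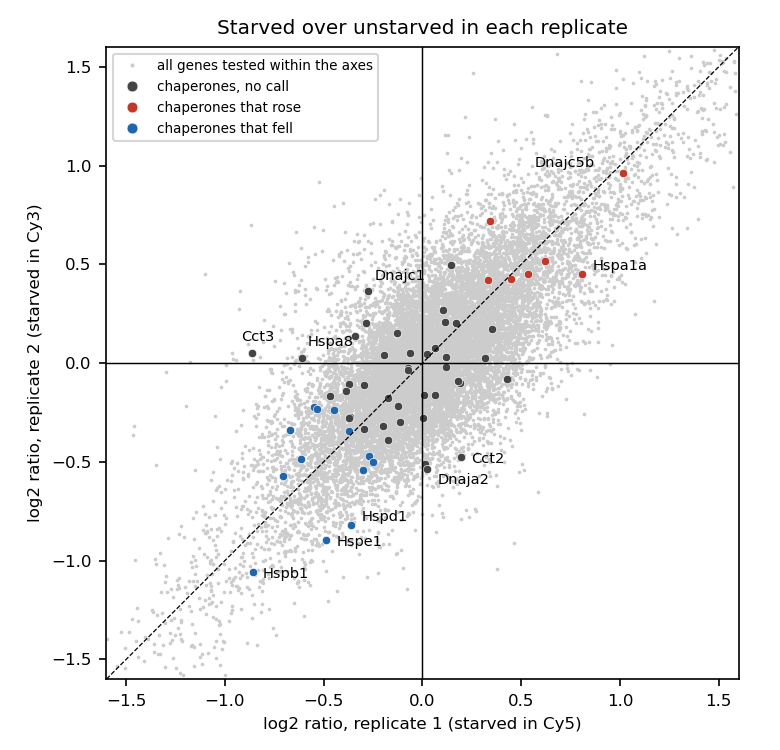
Log2 ratio in replicate 1 (horizontal axis) against replicate 2 (vertical axis), with all genes tested in light grey where they lie within the axes, chaperones that rose in red, those that fell in blue and those with no call in dark grey; the dashed line marks equal values. Each gene is shown by its brightest probe. Hspa8 and Cct3 lie far to the left and near 0 vertically, and Cct2 and Dnaja2 lie low and near or right of 0. Of the 62 chaperones, 19 have replicates of opposite sign.

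Replicates had opposite signs in 19 of the 62 tested chaperones, beside 4041 of all 16080 genes. The widest splits, chosen after their values were seen, were in Cct3, with -0.86 in replicate 1 and 0.05 in replicate 2, and in Cct2, with 0.19 and -0.47. Hspa8, with -0.61 and 0.03, and Dnajc1, a J protein of the endoplasmic reticulum, with -0.27 and 0.37, came close to these. None of these splits separates arrays within a replicate: in Cct3, arrays 1 and 3 differ by far less than either differs from arrays 2 and 4. All these values are from the brightest probe of a gene. In Cct3 the other tested probe did not split, at -0.49 in replicate 1 and -0.61 in replicate 2. Nor did that of Cct2 (-0.57 and -0.41) or Hspa8 (-0.38 and -0.35). The other tested probes of Dnajc1 gave -0.03 and 0.68, and 0.08 and -0.03.

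**Figure D4:**
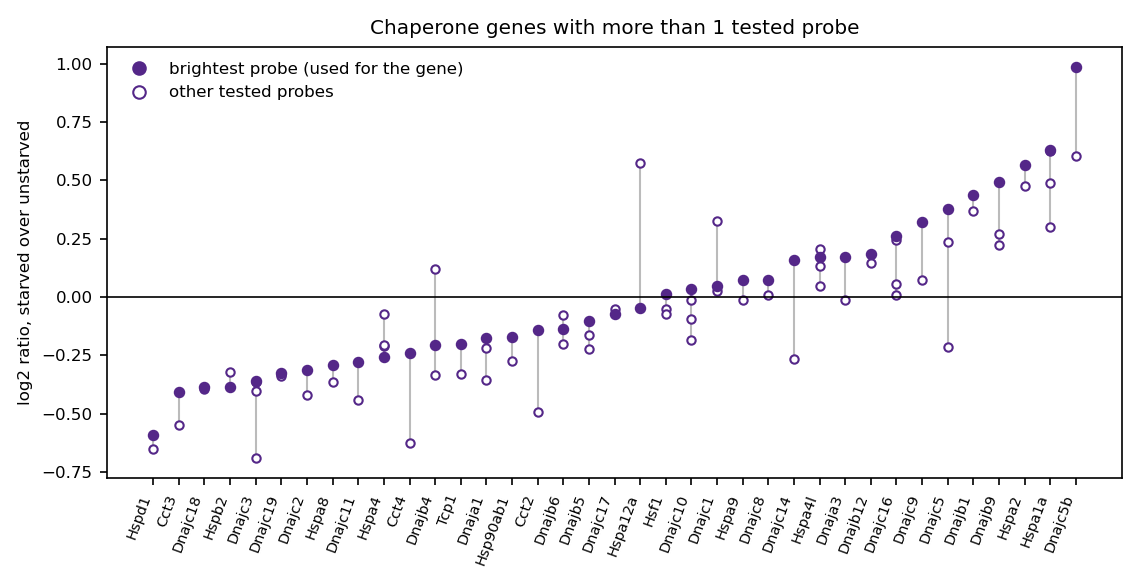
Mean log2 ratio of starved over unstarved cells (vertical axis) for each tested probe of the 37 chaperone genes with more than 1, ordered by the brightest probe, which stands for the gene in the test (filled); open circles are the other probes. Probes of 8 genes lie on both sides of 0, with the largest gap in Hspa12a, and all probes of Hspa1a, Hspa2, Hspd1 and Dnajc3 lie on one side.

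Of the 37 genes with more than 1 tested probe, 8 had probes on both sides of 0. These were Dnaja3, Dnajb4, Dnajc5, Dnajc10, Dnajc14, Hsf1, Hspa9 and Hspa12a. The gap was small in Hsf1 and Hspa9, whose probes were all near 0. It was largest, 0.62, in Hspa12a, a distant HSP70 relative, whose brightest probe gave -0.05 and whose other tested probe gave 0.57. Dnajb4, a cytosolic HSP40, had probes from -0.33 to 0.12, and Dnajc14 had probes at -0.27 and 0.16. The median gap over the 37 genes was 0.16. Which transcripts these probes share was not analysed here. Of the 11 genes of these families with other names on the array, 10 were tested: 3 fell (Hsph1, Dnajc24 at -0.56 and Dnajc25 at -0.48) and 1 rose (Dnajc28 at 0.60). Over all genes, 13.4% fell and 18.1% rose.

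Proteins that work with these chaperones were given by a list of 75 genes, of which 71 were tested. They leaned the same way: 13 fell (18.3%, beside 13.4% of all genes) and 6 rose (8.45%, beside 18.1%), and their median was -0.11. Below 0 were 71.8% of them, 62.9% of the chaperones and 49.2% of all genes. HSP90 cofactors, the largest list, held most of the falls, with 8 of 27 lower (29.6%) and 2 higher (7.41%). Cdc37l1, a relative of the kinase-client adaptor Cdc37, fell by 0.62 (adjusted p = 1.19e-03), Nudcd1 by 0.49 (adjusted p = 7.33e-03) and Ruvbl2, an ATPase of the R2TP complex, by 0.43 (adjusted p = 0.0147). Tsc1, an HSP90 co-chaperone better known from the tuberous sclerosis complex, and Aipl1 both rose by 0.44. Among 16 HSP70 cofactors, the exchange factors Sil1, of the endoplasmic reticulum (0.61), and Grpel2, of mitochondria (0.40), rose. In the prefoldin and CCT cofactor list, 2 of 15 fell (13.3%, near the share of all genes). These were Pfdn4, a subunit of prefoldin, which hands actin and tubulin chains to CCT (-0.93 ± 0.14, adjusted p = 1.00e-04), and Pdcl3 (-0.34). The other 5 prefoldin genes tested, Pfdn1, Pfdn2, Pfdn5, Pfdn6 and Vbp1, had ratios between -0.18 and 0.06 and passed in neither direction. Of 10 genes of mitochondrial folding and proteolysis, the matrix protease Lonp1 rose (0.81 ± 0.13, adjusted p = 2.08e-04) and Htra2 fell (-0.35). Among 3 heat shock factors and regulators tested, Hsbp1, which binds HSF1 and dampens it, rose by 0.63 (adjusted p = 1.02e-03). Hsf5 fell by 0.70 and Hsf2 was at 0.08 (adjusted p = 0.646). Both were dim, with mean log2 levels in unstarved cells of 7.97 and 7.65, where Hsbp1 was at 15.69.

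**Figure D5:**
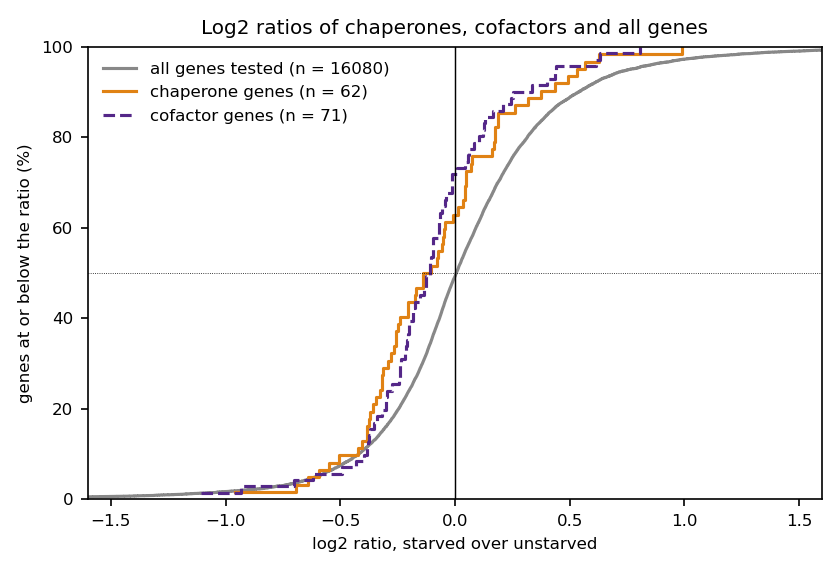
Share of genes at or below a given log2 ratio of starved over unstarved cells (horizontal axis; vertical axis in percent) for all 16080 genes tested (grey), the 62 chaperones (orange) and the 71 cofactors (dashed purple). The chaperone and cofactor curves cross the 50% line at -0.121 and -0.11, left of the curve of all genes at 0.005.

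Markers of the cell type were read on the same arrays. Of 21 collecting duct and epithelial markers 19 were tested. Of these 8 rose (42.1%, beside 18.1% of all genes), up to 4.49 in Cldn8, a claudin of the collecting duct. Krt7 and Krt8 fell, 2 of the 19 (10.5%, beside 13.4% of all genes). Aqp2 and Aqp3, water channels of principal cells, were measured in both groups (-0.19 and -0.21, adjusted p = 0.265 and 0.213). Aqp4, another water channel, and Scnn1b, a sodium channel subunit, were well above background on at most 1 array of a group. The summed signal of the 19, after loess and Aquantile, was 803756.9 to 852730.7 in unstarved and 689126.2 to 763604.2 in starved samples, lower in starved cells although more of these markers rose than fell. The keratins Krt8, Krt7 and Krt18 weigh most in this sum. They had the highest mean log2 levels of the 19 in unstarved cells, at 17.8, 17.6 and 17.5. Of 9 fibroblast markers 3 were tested, and Col1a1 fell by 1.01. Postn was well above background on all 4 arrays in unstarved cells and on none in starved cells, at least 1.91-fold lower (adjusted p = 9.09e-06), and it too passed the filter through 1 group only. Dcn, Lum, Col3a1, Thy1, Pdgfra and Pdgfrb were well above background on no array. The summed signal of the 3 fibroblast markers tested was 961.4 to 1077.2 in unstarved and 570.5 to 640.2 in starved samples. None of the 7 endothelial markers passed the background filter, and Ptprc was the only one of 7 leukocyte markers that fell (by 0.50, well above background on 2 arrays in starved cells). The summed signal of the 4 leukocyte markers tested was 1055.5 to 1226.4 in unstarved and 916.8 to 1031.9 in starved samples. The part of these marker changes in the chaperone ratios was not tested.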

How the data were processed

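Gene expression was measured in 8 samples (4 starved, 4 unstarved) on 4 Agilent 2-colour arrays. Agilent Feature Extraction 9.5.3.1 produced the deposited intensity of each spot (the mean signal and the median of its local background), per the submitters' processing notes. These intensities carry no dye normalization. The deposited processed intensity and the deposited value table of intensity served as alternatives. How the authors scaled that table is not given in the labels. The series text speaks of a dye swap within each pair, while the labels put starved RNA in Cy5 on both arrays of replicate 1 and in Cy3 on both of replicate 2. The labels were followed.

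In limma 3.58.1 (R 4.3.3), normexp with offset 50 corrected the mean signals and loess normalized every array, leaving out 1639 control spots. A probe was tested if 1 group or both had it well above background on its 4 arrays, and the brightest stood for its gene. Names came from a RefSeq table by accession (24375 probes), current symbol (6301) or synonym (2426), and 8072 probes kept the array's name. Averages over the arrays of each replicate, which pair the samples within arrays, were fitted with lmFit and eBayes. The shared error has 15 prior degrees of freedom. The bound for Dnajc5b compares single-channel levels after loess and Aquantile. The fit was tested on simulated data. The number of replicates (n = 2) limits the precision.

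The members and lists were chosen with earlier results of these data known. Named members are the 10 called genes of largest ratio per direction, the 2 of largest ratio per family, a set of well-known chaperones, and genes whose probes differ in sign or that were measured in 1 group. From each cofactor list the 3 called genes of largest ratio per direction are named. One result among the cofactors is not reported here. Other members, and the other prefoldin genes, were named after their values were seen. Figures were drawn with matplotlib.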

Additional observations from a re-analysis of the deposited data

How the results depend on the processing

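The count of members lower (13), the count higher (7), the count of cofactors called (19) and the count of all genes called (5052) depended most on the pairing of arrays into replicates, the dye term and the normalization. With arrays 1 and 2 averaged as a replicate, and 3 and 4 as the other, 22 members were higher and 37 lower, with 66 cofactors and 14298 genes called. With arrays 1 and 4 against 2 and 3, the counts were 20 and 37, with 67 cofactors and 14105 genes. A dye term gave 21 and 37, with 66 cofactors and 14211 genes. By the labels, dye orientation and replicate coincide, so this term takes up the difference between replicates. The other pairings put an array of each replicate in each average. In these settings the error is therefore that between repeat arrays, not between replicates. Median centring called 0 members higher, 0 lower, 0 cofactors and 249 genes by limma; before adjustment, 6 members and 2 cofactors were below 0.05. The member median, -0.121, was -0.326 with median centring (all genes -0.079), -0.135 with offset 10, -0.075 with no filter on dim probes, -0.138 with the filter in both groups and -0.139 with the mean of all probes. Without replicate 1 it was -0.104 and without replicate 2 -0.118, with no test. Leaving out each array in turn gave 7 members higher and 12 to 17 lower, with medians from -0.124 to -0.112. The fit with no replicate block, unpaired, gave 7 higher and 17 lower with a median of -0.121, and replicate as a random effect gave 7 and 19. Agilent's processed signals gave 6 and 9, and the deposited values 6 and 10. No called member changed sign in any setting. For the named genes, 480 of 575 tested values under alternatives kept direction and call. Apart from these pairings and the dye term, the cause of the changes was not tested.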
